A study of Mus musculus with 8 samples.

Results

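The 10 genes described here, *Arc*, *Npas4*, *Klf4*, *Ier2*, *Ier5*, *Dusp1*, *Dusp4*, *Dusp5*, *Dusp6* and *Sik1*, encode effectors of the activity-induced gene programme and phosphatases of the mitogen-activated protein kinase (MAPK) pathway. They were selected by symbol from 56691 genes as activity-induced genes outside the AP-1, Egr and Nr4a transcription factor families, with the *Atm*-WT and *Atm*-KO levels of this dataset in view, so their difference between genotypes is given as a description and carries no test. RNA was sequenced from cerebellar tissue of 8 mice aged 6 months, 4 *Atm*-WT (mice 2M, 7M, 13M and 32M, labelled ATM +/+) and 4 *Atm*-KO (mice 1M, 7F, 11M and 12M). Both genotypes were littermates from heterozygous crosses of the germline null line B6;129S4-Atmtm1Bal/J, so *Atm* was disrupted in every cell type and from the start of life, and the labels give no treatment for either group. The study's protocol for brain harvest used avertin anaesthesia and perfusion with chilled saline. The time of day of the harvest is not given in the sources used here.

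When synaptic input or a growth factor reaches a cell, calcium and the Ras to ERK kinase cascade activate transcription factors already bound to DNA, mainly CREB and serum response factor, and a first wave of genes is transcribed within minutes. Part of that wave encodes transcription factors (Fos, Egr and Nr4a proteins), and part encodes direct effectors and brakes. Arc acts at the synapse, Npas4 is a neuronal transcription factor, Sik1 is a kinase that holds back CREB coactivators, and the Dusp proteins remove the phosphates that activate ERK, JNK and p38, so that their induction limits the signal that induced them. Several of these genes also answer to other inputs outside neurons, such as blood flow for *Klf4* in endothelial cells and glucocorticoids for *Dusp1*.

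The deposited counts ranged in total from 76912738 to 88030300 per *Atm*-WT library and from 65967130 to 78431478 per *Atm*-KO library. After a filter on low counts 22423 genes were tested with edgeR, and all 10 genes passed it in both genotypes. *Atm* itself, the disrupted gene, had 71.5 ± 10.1 CPM (read counts scaled to library size with TMM factors, the unit of all levels given here; SD, n = 4) in the *Atm*-WT group and 45.4 ± 4.16 CPM in the *Atm*-KO group, without overlap, and its log2 fold change of -0.66 (SE 0.10) had an adjusted p of 0.0775 in edgeR (0.0315 without *Atm*-WT mouse 32M). Counts per gene do not show which exons the remaining reads came from. Defining markers of granule cells and Purkinje cells were present in every library, and none of the cell type markers examined was at 0 in every library. *Atm*-KO mouse 12M stood apart in tissue makeup, with a summed level of oligodendrocyte markers of 2086 CPM (3317 or more in the other *Atm*-KO mice) and of deep nuclear and brainstem markers of 73.1 CPM (152 or more in the others).

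The upstream sequences of the genes show which inducible elements stand close to their start sites. Promoters of 6 of the 10 genes were present in the RefSeq table (GRCm38.p6). Those for *Arc*, *Dusp4*, *Ier2* and *Sik1* were not in it. The 250 bases before the start of 5 of them are printed from 5′ to 3′ because these genes either varied together from mouse to mouse or did not overlap between genotypes. Capitals mark the CREB response element TGACGTCA, its shorter core TGACG read on either strand (CGTCA on the printed strand is the same element) and the CArG box, the core of the serum response element. Coordinates are of GRCm38.p6, unlike the gene positions given further on, which are of GRCm39.
Dusp1, chr17:26508473-26508722 (- strand): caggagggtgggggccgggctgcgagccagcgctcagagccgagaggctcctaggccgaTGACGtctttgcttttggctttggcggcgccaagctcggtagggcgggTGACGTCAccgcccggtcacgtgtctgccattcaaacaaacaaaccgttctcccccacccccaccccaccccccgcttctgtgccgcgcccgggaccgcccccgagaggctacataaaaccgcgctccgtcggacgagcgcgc
Npas4, chr19:4989972-4990221 (- strand): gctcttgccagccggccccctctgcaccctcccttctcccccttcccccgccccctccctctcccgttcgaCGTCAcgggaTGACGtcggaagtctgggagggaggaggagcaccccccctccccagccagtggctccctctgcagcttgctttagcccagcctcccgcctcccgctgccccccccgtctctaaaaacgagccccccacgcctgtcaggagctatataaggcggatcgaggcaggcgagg
Dusp5, chr19:53528895-53529144 (+ strand): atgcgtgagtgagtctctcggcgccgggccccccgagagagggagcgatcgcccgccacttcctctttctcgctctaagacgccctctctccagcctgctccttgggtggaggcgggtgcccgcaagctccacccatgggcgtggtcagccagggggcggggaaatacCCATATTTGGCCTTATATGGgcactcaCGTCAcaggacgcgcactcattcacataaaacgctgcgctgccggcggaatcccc
Klf4, chr4:55532476-55532725 (- strand): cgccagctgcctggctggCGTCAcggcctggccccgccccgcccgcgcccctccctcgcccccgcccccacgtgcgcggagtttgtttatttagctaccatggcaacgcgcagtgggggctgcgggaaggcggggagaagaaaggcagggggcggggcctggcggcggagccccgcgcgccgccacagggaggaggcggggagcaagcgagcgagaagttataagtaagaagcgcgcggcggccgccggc
Dusp6, chr10:99262981-99263230 (+ strand): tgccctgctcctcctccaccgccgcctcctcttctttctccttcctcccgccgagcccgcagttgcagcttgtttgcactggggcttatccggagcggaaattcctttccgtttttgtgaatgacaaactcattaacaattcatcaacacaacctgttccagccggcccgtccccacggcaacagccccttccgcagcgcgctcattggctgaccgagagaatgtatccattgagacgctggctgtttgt
The full element TGACGTCA, which contains the shorter core on both strands, was present in *Dusp1* and in no other of the 6, at positions -143 to -136 (bases before the start), and occurred in 1.79% of the 32851 promoters of the table. The shorter core was found in 4 of the 6, namely *Klf4*, *Dusp1*, *Npas4* and *Dusp5*, against 20.8% of all promoters. In *Npas4* it occurred on opposite strands, at -179 to -175 and -169 to -165. *Dusp5* carried 2 adjoining CArG boxes, at -82 to -73 and -72 to -63, a motif present in 1.63% of promoters, with the shorter core at -55 to -51. *Dusp6* had none of these letters in its window. TATAAA was found in none of the 6 and in 13.6% of all promoters. The search took these exact letters only, so a variant such as the TATATAA printed for *Npas4* was not counted. TCGTG, the core bound by Npas4, was found in *Ier5* alone and in 16% of all promoters. GC content was 68.4% in *Dusp1*, 68.8% in *Npas4*, 64% in *Dusp5*, 74% in *Klf4*, 60% in *Ier5* and 56.4% in *Dusp6*, each above the median of 52.4% for all promoters. These are matches of letters, not measured binding.

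The 10 genes also shared a compact structure that the selection did not use. In GENCODE vM39 on GRCm39 the canonical transcripts spanned 1524 to 15969 bases with introns, with a median of 4811 bases against 2.32e+04 bases for 15322 protein-coding genes tested, and all 10 lay below that median. The number of exons ranged from 1 (*Ier2* and *Ier5*, which have no intron) to 14 (*Sik1*), with a median of 4 against 9.

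Levels per length, as CPM divided by kilobases of annotated exon (RPKM, mean ± SD over the 8 mice), covered a wide range. *Dusp5* was the highest, at 39.8 ± 6.27 RPKM, followed by *Dusp1* at 10.96 ± 2.99 RPKM. *Ier2* (6.59 ± 1.14), *Dusp6* (6.46 ± 1.21), *Ier5* (5.52 ± 0.626), *Arc* (5.39 ± 0.661) and *Dusp4* (4.42 ± 1.16 RPKM) followed, each within the spread of its neighbour in that order. *Klf4* had 2.50 ± 0.991 RPKM, *Sik1* 1.14 ± 0.312 RPKM and *Npas4* 0.348 ± 0.145 RPKM. The nuclear phosphatases *Dusp5* and *Dusp1* were thus the most abundant of the 10, and the neuronal factor *Npas4* was the least abundant, with 66 to 177 counts per library. Taking the canonical transcript in place of all exons moved *Dusp1* to 18.3 RPKM and left it second.

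Between genotypes, 9 of the 10 genes had a lower mean level on the log2 scale in *Atm*-KO mice, where 53.1% of all genes tested did, and the median log2 fold change (*Atm*-KO minus *Atm*-WT) was -0.32 against -0.018 for all genes. For *Klf4*, *Sik1* and *Dusp6*, every *Atm*-KO mouse lay below every *Atm*-WT mouse, 3 of 10 genes against 5.12% of genes tested. None of the 10 had every *Atm*-KO mouse above every *Atm*-WT mouse, which was so for 6.47% of genes tested. Leaving out single mice gave 3 or 4 genes without overlap, where the share of all genes tested rose as well, to between 6.19% and 9.48%, with *Dusp1* joining when *Atm*-WT 7M or *Atm*-KO 12M was left out and *Dusp4* when *Atm*-WT 32M or *Atm*-KO 1M was. Since the selection used this contrast, nothing is read from these counts. In whole tissue, fewer cells of a type and less RNA per cell cannot be told apart.

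**Figure D1:**
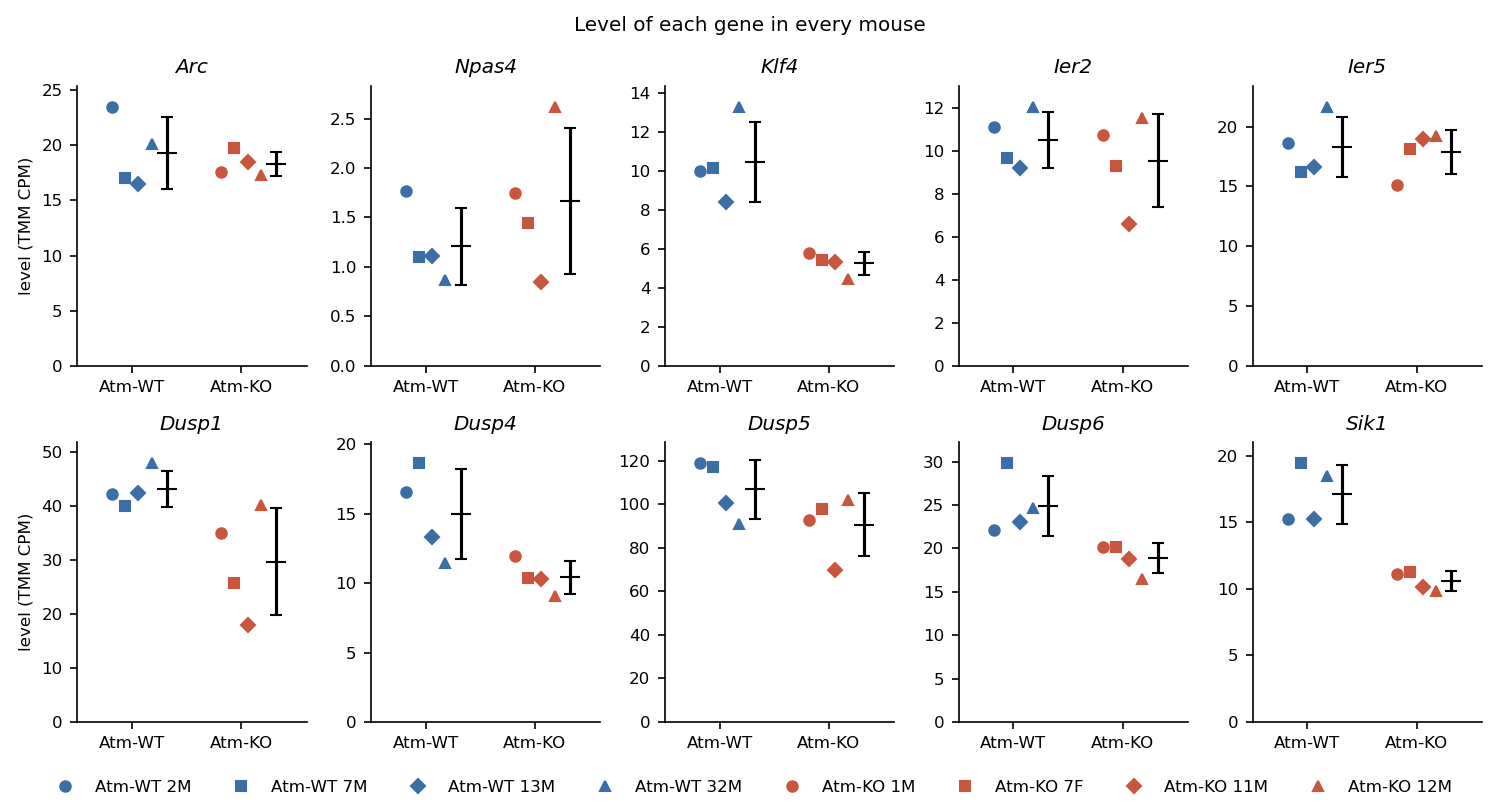
Level of each of the 10 genes in every mouse, in TMM-normalised CPM on linear axes that start at 0. Each symbol is a mouse (blue, *Atm*-WT; red, *Atm*-KO), and the black bar beside each group is its mean and SD (n = 4). *Klf4*, *Sik1* and *Dusp6* show no overlap of the groups, and *Dusp1* has its widest spread among the *Atm*-KO mice.

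Among the transcription factors, *Klf4*, a zinc finger factor of the Krüppel-like family (GRCm39 chr4:55527139-55532528, minus strand), had the greatest difference of the 10. Its level was 10.02, 10.2, 8.44 and 13.3 CPM in *Atm*-WT mice 2M, 7M, 13M and 32M, and 5.82, 5.43, 5.34 and 4.46 CPM in *Atm*-KO mice 1M, 7F, 11M and 12M. The lowest *Atm*-WT mouse stood well above the highest *Atm*-KO mouse. The means of 10.5 ± 2.05 and 5.26 ± 0.576 CPM (SD, n = 4) corresponded to a log2 fold change of -0.99 (SE 0.15), which ranged from -1.07 to -0.86 over the other tools, normalisations and filters and with each mouse left out.

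*Npas4*, a basic helix-loop-helix factor that neurons induce on calcium influx (chr19:5034382-5040344, minus strand), was the exception in direction. It measured 1.77, 1.10, 1.11 and 0.86 CPM in *Atm*-WT mice, against 1.75, 1.45, 0.85 and 2.62 CPM in the *Atm*-KO mice. The lowest and the highest of the 8 values were both from *Atm*-KO mice (11M and 12M), and the groups overlapped throughout. The log2 fold change was 0.46 (SE 0.34), from 0.16 (without *Atm*-KO mouse 12M) to 0.70 (without *Atm*-WT mouse 2M) over the alternatives.

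*Arc*, whose protein binds the postsynaptic endocytic machinery and lowers surface AMPA receptors (chr15:74540932-74544419, minus strand), had 23.5, 17.03, 16.5 and 20.1 CPM in *Atm*-WT mice and 17.6, 19.8, 18.5 and 17.3 CPM in *Atm*-KO mice. All *Atm*-KO values fell inside the *Atm*-WT range. Its log2 fold change was -0.078 (SE 0.12) and turned to 0.029 when *Atm*-WT mouse 2M, the highest, was left out.

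The intronless genes *Ier2* and *Ier5* encode related nuclear proteins of the immediate early response. *Ier2* (chr8:85387960-85389483, minus strand) had 11.1, 9.67, 9.21 and 12.1 CPM in *Atm*-WT mice against 10.8, 9.32, 6.63 and 11.6 CPM in *Atm*-KO mice. Only mouse 11M lay below the *Atm*-WT range, and the log2 fold change of -0.14 (SE 0.17) became 0.016 without it. *Ier5* (chr1:154972107-154975382, minus strand) ranged from 16.2 to 21.7 CPM in *Atm*-WT mice and from 15.2 to 19.2 CPM in *Atm*-KO mice, with a log2 fold change of -0.034 (SE 0.11) and values from -0.091 to 0.056 over the alternatives.

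Among the phosphatases, *Dusp6*, the cytoplasmic phosphatase specific to ERK and a common feedback target of that kinase (chr10:99086564-99103361, plus strand), separated the genotypes. It had 22.2, 29.9, 23.0 and 24.7 CPM in *Atm*-WT mice and 20.2, 20.2, 18.7 and 16.5 CPM in *Atm*-KO mice. The groups did not overlap, though the highest *Atm*-KO mouse was close to the lowest *Atm*-WT mouse. Means were 24.9 ± 3.45 and 18.9 ± 1.72 CPM, a log2 fold change of -0.40 (SE 0.11). Noncoding genes lie on the opposite strand of *Dusp6*, and as no source states whether counting used strand, their reads cannot be told apart from its own.

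*Dusp1*, the nuclear phosphatase of p38, JNK and ERK (chr17:26724564-26781102, minus strand), had the *Atm*-KO group with the widest spread for its level among the phosphatases. *Atm*-WT mice lay close together at 42.2, 40.0, 42.5 and 48.0 CPM, while *Atm*-KO mice had 35.0, 25.7, 17.9 and 40.3 CPM. Mouse 11M was lowest and mouse 12M reached just above *Atm*-WT mouse 7M, so that the groups overlapped by that single value. The log2 fold change was -0.54 (SE 0.20), -0.72 without *Atm*-KO mouse 12M and -0.35 without *Atm*-KO mouse 11M. In the annotation used here the gene also overlaps *Ergic1* on the opposite strand.

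*Dusp4*, a nuclear phosphatase with similar substrates (chr8:35274442-35287048, plus strand), had 16.6, 18.7, 13.3 and 11.4 CPM in *Atm*-WT mice against 11.98, 10.4, 10.3 and 9.04 CPM in *Atm*-KO mice. *Atm*-WT mouse 32M lay within the *Atm*-KO range and the other *Atm*-WT mice above it, with a log2 fold change of -0.52 (SE 0.15). *Dusp5*, the nuclear phosphatase specific to ERK (chr19:53517532-53530862, plus strand), had 119, 117, 101 and 90.8 CPM in *Atm*-WT mice against 92.9, 97.8, 70.0 and 102 CPM in *Atm*-KO mice. The ranges overlapped, and the log2 fold change of -0.24 (SE 0.12) was -0.12 without *Atm*-KO mouse 11M.

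*Sik1*, a salt-inducible kinase that phosphorylates the Crtc coactivators of CREB and keeps them in the cytoplasm (chr17:32058850-32074818, minus strand), had 15.2, 19.4, 15.2 and 18.4 CPM in *Atm*-WT mice against 11.1, 11.3, 10.1 and 9.81 CPM in *Atm*-KO mice. The groups did not overlap and were tighter relative to their level than those of *Klf4*. Means of 17.1 ± 2.18 and 10.6 ± 0.733 CPM gave a log2 fold change of -0.69 (SE 0.11), from -0.74 to -0.63 over the alternatives. Expressed as a share of the *Atm*-WT mean, *Atm*-KO levels were 50.2% for *Klf4*, 62.0% for *Sik1*, 68.8% for *Dusp1*, 69.5% for *Dusp4*, 75.8% for *Dusp6*, 84.9% for *Dusp5*, 90.9% for *Ier2*, 94.7% for *Arc*, 97.7% for *Ier5* and 138% for *Npas4*.

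**Figure D2:**
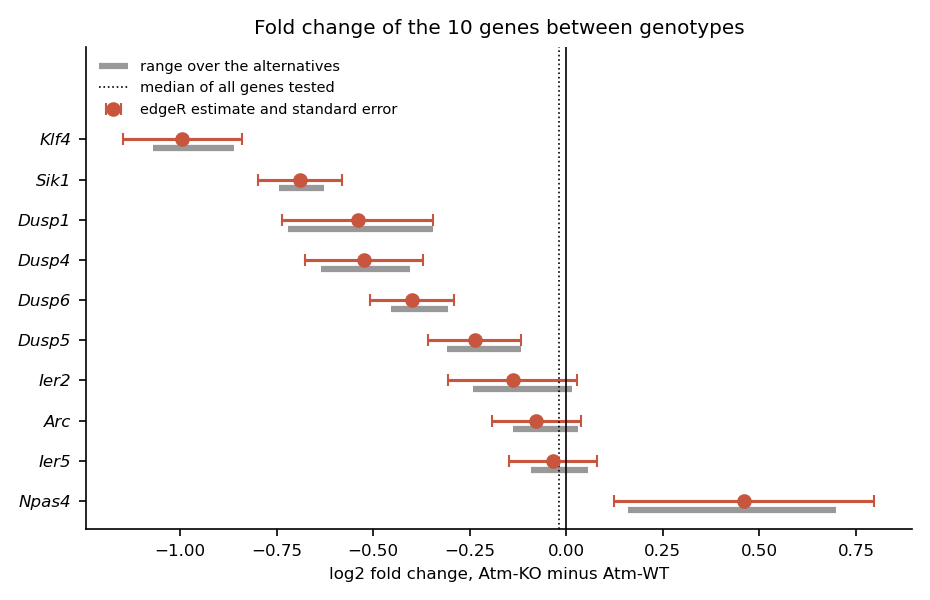
Log2 fold change (*Atm*-KO minus *Atm*-WT) of the 10 genes in edgeR with its standard error (red, n = 4 mice per genotype). Grey bars span the values under the other tools, normalisations, filters and with each mouse left out, and the dotted line is the median of all genes tested. The bars of *Klf4*, *Sik1*, *Dusp1*, *Dusp4*, *Dusp6* and *Dusp5* stay below 0, those of *Ier2*, *Arc* and *Ier5* cross it, and that of *Npas4* stays above it.

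Variation among mice of a genotype was measured as the deviation of each log2 CPM from its genotype mean, which leaves out the difference in means. It was not shown to be independent of the selection, since the absence of overlap between genotypes also depends on it. The SD of these deviations was greatest for *Npas4* (0.556), *Dusp1* (0.374) and *Ier2* (0.281) and smallest for *Sik1* (0.148). With a median of 0.221 against 0.229 for all genes tested, and 4 of the 10 above that value, the spread from mouse to mouse was near that of other genes. Over the 45 pairs of the 10 genes, Pearson's r of the deviations (8 mice, points sharing library, depth and dissection) had a median of 0.0283 against -0.0005 over all pairs of tested genes. The set did not vary as a unit, with 9 pairs over 0.5, 1 pair under -0.5 and 19 pairs below 0.

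Within that mixture the map of pairwise r held separate clusters, which were picked out after the values were seen and are described without a test. *Dusp1* and *Ier2* had the highest r of any pair, 0.93 (Spearman's rho 0.81), and still 0.72 without *Atm*-KO mice 11M and 12M, the mice farthest from the median of *Dusp1*. *Npas4* and *Dusp5* had an r of 0.86 (rho 0.81, and 0.71 without the same mice). Links between these pairs rested on those mice, since r of *Dusp1* and *Npas4* was 0.74 with them and -0.046 without, and r of *Dusp1* and *Dusp5* was 0.56 with them and -0.58 without. Mouse 11M had the lowest *Atm*-KO value of all 4 genes (deviations of -0.66 for *Dusp1*, -0.50 for *Ier2*, -0.84 for *Npas4* and -0.36 for *Dusp5*), and mouse 12M had the highest (0.50, 0.30, 0.75 and 0.19).

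The second cluster joined the genes without overlap between genotypes. Among mice of a genotype *Sik1* and *Dusp6* had an r of 0.89 (rho 0.83), and 0.80 without *Atm*-WT mice 2M and 7M. *Sik1* and *Klf4* had an r of 0.66 (rho 0.67), 0.91 without the same mice and 0.51 without *Atm*-WT mouse 13M. *Klf4* and *Dusp6* had 0.43, which was 0.22 without *Atm*-KO mouse 12M and 0.73 without *Atm*-WT mouse 7M. *Dusp6* with *Dusp4* gave 0.56, which turned to -0.55 without *Atm*-WT mouse 7M and *Atm*-KO mouse 12M. *Dusp1* and *Sik1*, both lower on average in *Atm*-KO mice, had an r of 0.016. *Ier5* and *Dusp4* had the only r under -0.5 (-0.73), which was -0.096 without *Atm*-WT mouse 32M and *Atm*-KO mouse 1M.

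**Figure D3:**
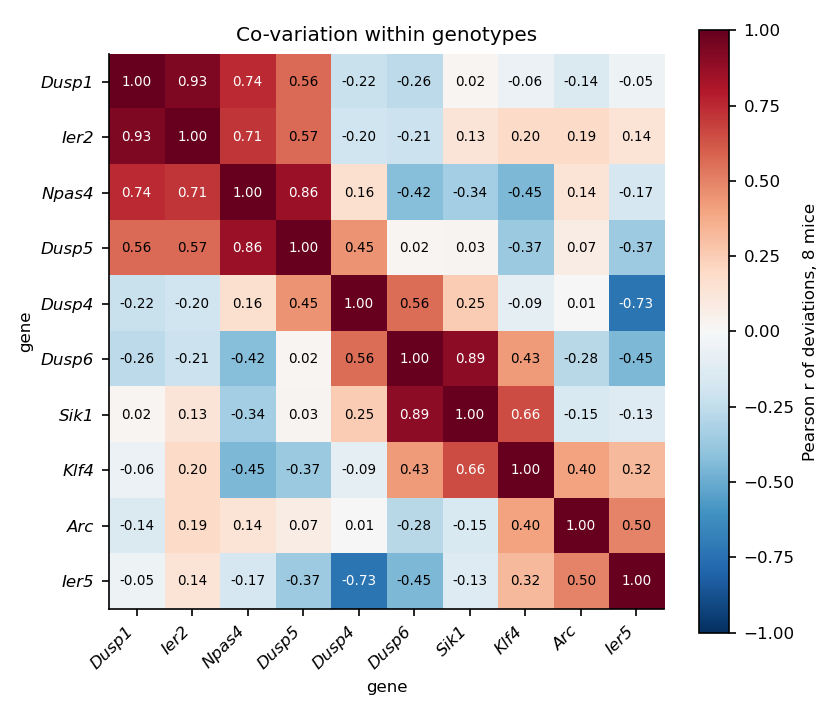
Pearson's r between each pair of the 10 genes, from the deviations of log2 CPM from the genotype mean over 8 mice. Red is positive and blue negative. *Dusp1*, *Ier2*, *Npas4* and *Dusp5* form a block with r from 0.56 to 0.93, *Sik1* has 0.89 with *Dusp6* and 0.66 with *Klf4*, and *Ier5* has -0.73 with *Dusp4*.

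**Figure D4:**
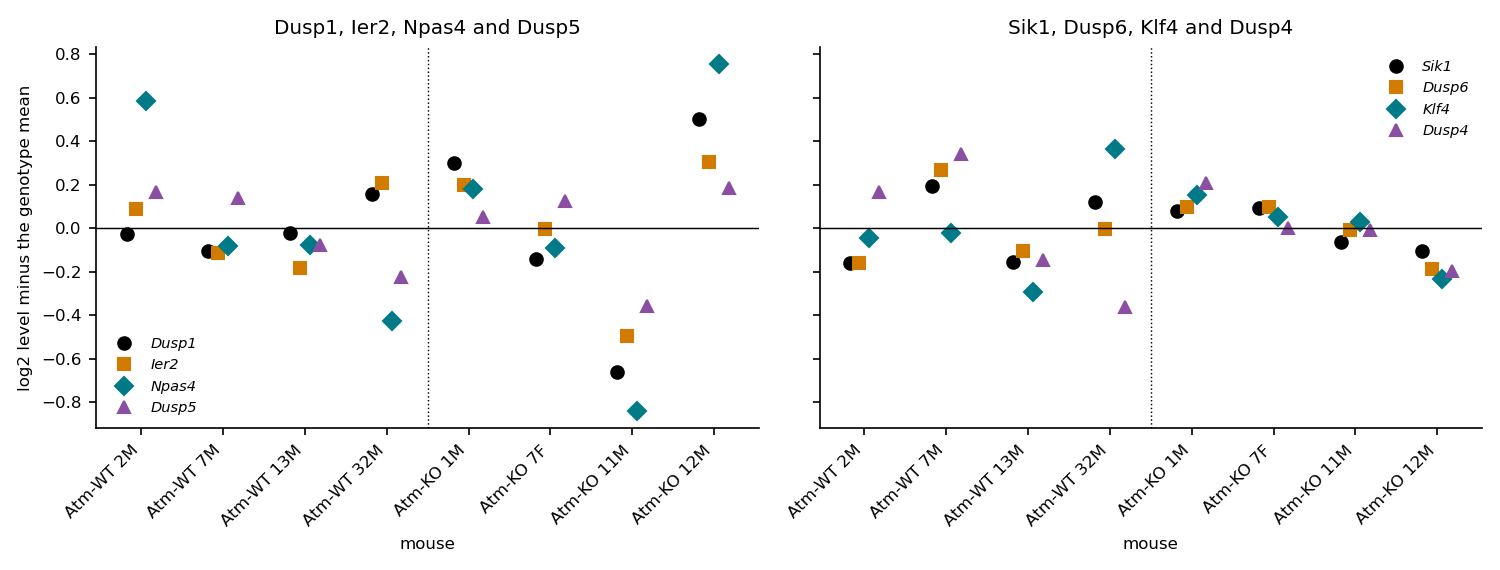
Deviation of log2 CPM from the genotype mean in each mouse, for *Dusp1*, *Ier2*, *Npas4* and *Dusp5* (left) and for *Sik1*, *Dusp6*, *Klf4* and *Dusp4* (right). The dotted line parts *Atm*-WT from *Atm*-KO mice. On the left, *Atm*-KO mouse 11M is low and mouse 12M high for all 4 genes, and on the right mouse 12M is low for all 4.

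*Atm*-KO mouse 12M thus had the highest *Atm*-KO levels of *Dusp1*, *Ier2*, *Npas4* and *Dusp5* and the lowest of *Klf4*, *Sik1*, *Dusp4* and *Dusp6*. It was also the *Atm*-KO mouse with the lowest marker sums of oligodendrocytes, deep nuclear and brainstem neurons, endothelial cells, mural cells, microglia and astrocytes with Bergmann glia, and the part of that makeup in these levels was not tested. Without it the log2 fold change of *Npas4* was 0.16 in place of 0.46, that of *Ier2* -0.24 in place of -0.14 and that of *Dusp1* -0.72 in place of -0.54. The others were -0.92 for *Klf4*, -0.66 for *Sik1*, -0.46 for *Dusp4*, -0.34 for *Dusp6*, -0.30 for *Dusp5*, -0.053 for *Arc* and -0.071 for *Ier5*.

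The genes whose deviations were most like the mean scaled deviation of the 10 (n = 8 mice, mean of at least 1 CPM) were *H2bc6* (r = 0.968), *Cfap91* (0.966), *Mospd3* (0.960), *Med11* (0.947), *Klf16* (0.940), *Cul7* (0.938), *Stx8* (0.936), *Zfp710* (0.930), *Pyroxd2* (0.928) and *Fermt3* (0.927). These were the highest values of a search over all such genes with 8 mice, and they carry no test. The 14 AP-1, Egr and Nr4a factors were spread from -0.56 (*Fosl1*) to 0.85 (*Fos*) on the same measure. Of all genes tested, 99.5% had a lower r than *Fos*, 99.5% than *Jun* and 98.75% than *Nr4a1*. The share was 95.2% for *Egr1*, 94.7% for *Jund*, 94.1% for *Fosb*, 94% for *Egr2* and 93.4% for *Egr4*. It was 88.4% for *Nr4a2*, 87.3% for *Junb*, 70.3% for *Nr4a3*, 49.3% for *Egr3*, 44.35% for *Fosl2* and 5.7% for *Fosl1*. *Fos*, *Jun* (0.85) and *Nr4a1* (0.79) were the highest, while *Fosl2* (-0.070) and *Egr3* (-0.023) lay near 0. For single genes, *Dusp1* and *Fos* had an r of 0.85 (0.68 without *Atm*-KO mice 11M and 12M), whereas *Sik1* and *Fos* had 0.37 and *Arc* and *Fos* 0.16. *Klf4* went with *Klf2*, its relative in the same family and likewise induced in endothelial cells by flow, at an r of 0.94 (rho 0.95, and 0.83 without *Atm*-WT mice 13M and 32M). Its r with *Apold1*, an endothelial early response gene, was 0.68, and 0.27 without *Atm*-WT mouse 32M.

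Genes of the connected pathways were compared in the same fit. Their lists were chosen with earlier results of these data known, so the counts are given as descriptions and not as independent support. With thresholds of 0.05 for the adjusted p and 0.5 for the size of the log2 fold change, edgeR called 0.0178% of all genes tested (4 genes) and none in any of the lists that follow, so counts at an unadjusted p under 0.05 are given beside their background of 8.48% of genes lower and 11.7% higher in *Atm*-KO mice. DESeq2 at the same thresholds called 0.902% of its genes lower and 3.89% higher, and limma voom 0.00892% lower and 0.00446% higher and none in these lists. Summed levels did not overlap, with *Atm*-KO mice lower, for AP-1, Egr and Nr4a factors (254.5 to 346.4 against 192.6 to 244.4 CPM). The same held for other activity-induced genes (929 to 1090 against 749.6 to 836.6 CPM) and other MAPK phosphatases (293.3 to 324 against 262.7 to 288.7 CPM). It also held for the glucocorticoid response (1143 to 1683 against 874.1 to 1084 CPM). Sums of the MAPK cascade, ERK output and CREB lists overlapped.

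All 14 factors of the AP-1, Egr and Nr4a families had a log2 fold change below 0, with a median of -0.64, and 9 of them had an unadjusted p under 0.05 (edgeR). DESeq2 called 2 of the 14 lower, and none of the 14 was free of overlap between genotypes. *Fos* had 21.6 ± 7.26 CPM in *Atm*-WT mice against 10.5 ± 4.19 CPM in *Atm*-KO mice (SD, n = 4), a log2 fold change of -1.04 (SE 0.30, edgeR adjusted p = 0.116). *Fosb* had a log2 fold change of -1.28 (SE 0.55, edgeR adjusted p = 0.228) with its highest level in *Atm*-WT mouse 32M. Without that mouse the value of *Fosb* was -0.34 and the median of the list -0.36, and without *Atm*-KO mouse 11M 5 of the 14 had an unadjusted p under 0.05.

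Of 36 other activity-induced genes 31 had a log2 fold change below 0, with a median of -0.31, near the -0.32 of the 10. At an unadjusted p under 0.05, 18 were lower and none higher in edgeR, 10 showed no overlap with *Atm*-KO mice lower (5.12% of all genes tested), and DESeq2 called 7, all lower. *Apold1* (11.7 ± 7.14 against 4.07 ± 1.75 CPM, log2 fold change -1.52, SE 0.39, edgeR adjusted p = 0.104) and *Klf2* (10.7 ± 3.89 against 4.05 ± 0.478 CPM, log2 fold change -1.41, SE 0.22, edgeR adjusted p = 0.0775) had the greatest differences. *Klf2*, like *Klf4*, showed no overlap between genotypes, and it passed both thresholds in edgeR without *Atm*-WT mouse 13M (adjusted p = 0.0291) or 32M (adjusted p = 0.0315).

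Phosphatases and kinases outside the set had medians closer to that of all genes. Of 6 other MAPK phosphatases 5 were tested, with a median of -0.11, 4 values below 0 and 2 at an unadjusted p under 0.05 in edgeR, *Dusp7* (-0.23, SE 0.096, edgeR adjusted p = 0.211) and *Dusp8* (-0.21, SE 0.065, edgeR adjusted p = 0.130), with 0 called by DESeq2. *Dusp8*, which acts on JNK and p38 and is rich in brain, went from 166 ± 8.16 to 144 ± 8.83 CPM without overlap. The 32 genes of the MAPK cascade itself, from Ras to the Elk and Srf factors, had a median of -0.032, with 3 lower and 2 higher at an unadjusted p under 0.05 in edgeR. The 3 lower ones were *Mapk3* (-0.31, SE 0.095, edgeR adjusted p = 0.128), without overlap, *Map2k6* (-0.25, SE 0.096, edgeR adjusted p = 0.181) and *Elk4* (-0.17, SE 0.075, edgeR adjusted p = 0.240). The 2 higher ones were the p38 kinases *Mapk11* (12.9 ± 0.792 against 20.7 ± 2.10 CPM, log2 fold change 0.68, SE 0.095, edgeR adjusted p = 0.0513), without overlap, called by DESeq2 and by edgeR without *Atm*-WT mouse 13M at an adjusted p of 0.0398, and *Mapk12* (0.45, SE 0.15, edgeR adjusted p = 0.142). *Mapk11* and *Mapk12* are neighbours on chromosome 15.

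Genes that report or damp ERK output, as *Dusp6* does, had values on both sides of 0. The 13 genes tested had a median of -0.029, with 1 lower and 2 higher at an unadjusted p under 0.05 in edgeR, and DESeq2 called 1 lower. *Spry4*, a feedback inhibitor of Ras to ERK signalling, had 40.6 ± 7.71 against 27.5 ± 6.37 CPM without overlap (log2 fold change -0.56, SE 0.17, edgeR adjusted p = 0.123), while *Etv4*, an Ets factor downstream of ERK, was at 0.36 (SE 0.12, edgeR adjusted p = 0.151), also without overlap. In this list of 13 genes 1 was lower and 2 were higher without overlap, against 5.12% and 6.47% of all genes tested. The 21 genes of the CREB, Crtc and Sik pathway had a median of -0.069, with 2 lower and 3 higher at an unadjusted p under 0.05 in edgeR and none called by DESeq2, and *Crtc2*, a coactivator of the kind that Sik1 phosphorylates, was at 0.35 (SE 0.12, edgeR adjusted p = 0.164). Of the dimer partners of Npas4, *Arnt* was at 0.31 (SE 0.092, edgeR adjusted p = 0.119) without overlap and *Arnt2*, the partner typical of neurons, at -0.15 (SE 0.097, edgeR adjusted p = 0.404).

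Genes of the glucocorticoid response, which share *Errfi1*, *Per1* and *Sgk1* with the list of other activity-induced genes (3 of 16 and 3 of 36), were lower on average throughout. All 16 had a log2 fold change below 0, with a median of -0.69, 13 had an unadjusted p under 0.05 in edgeR, 8 showed no overlap (5.12% of all genes tested), and DESeq2 called 6, all lower. Without *Atm*-WT mouse 13M the median was -0.49 and 11 had an unadjusted p under 0.05. *Fkbp5*, a cochaperone of the receptor, had a log2 fold change of -1.32 (SE 0.39, edgeR adjusted p = 0.122), which was -0.75 without *Atm*-WT mouse 13M, its highest, and the metallothionein *Mt2* had -1.11 (SE 0.29, edgeR adjusted p = 0.105). The part of this response in the levels of *Dusp1* or the other genes was not tested.

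**Figure D5:**
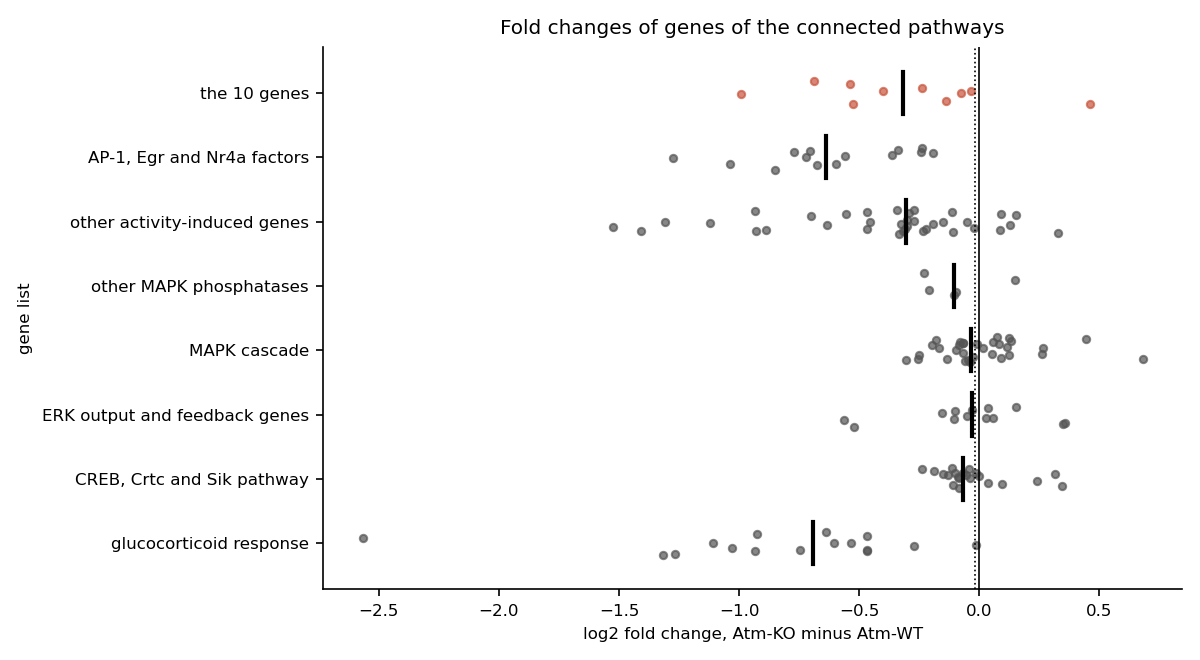
Log2 fold change (*Atm*-KO minus *Atm*-WT, edgeR) of the 10 genes (red) and of every tested gene of the connected lists (grey), each point a gene and each black bar a median. The dotted line is the median of all genes tested. Medians lie at -0.32 for the 10 genes, -0.64 for AP-1, Egr and Nr4a factors, -0.31 for other activity-induced genes and -0.69 for the glucocorticoid response, and between -0.11 and -0.029 for the other lists.

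Marker sums of the cell types that could carry these transcripts were measured in the same libraries. Endothelial markers, for the cells in which *Klf4*, *Klf2* and *Apold1* are flow-responsive, summed to 264 to 301 CPM in *Atm*-WT mice against 226 to 294 CPM in *Atm*-KO mice (252 or more without mouse 12M), with 6 of 10 markers lower. Mural markers summed to 243 to 291 and 184 to 244 CPM (226 or more without mouse 12M), and microglial markers to 146 to 199 and 112 to 149 CPM (132 or more without it), with 10 of 10 lower in each. The 10 markers each of choroid plexus (844 to 1680 and 466 to 1306 CPM), oligodendrocytes (3467 to 4526 and 2086 to 3579 CPM) and astrocytes with Bergmann glia (5425 to 6203 and 4816 to 5615 CPM) were likewise all lower on average, with overlapping sums. Granule cell markers, for the most numerous neurons of the tissue, summed to 6713 to 7778 and 6904 to 9274 CPM and overlapped, with 4 of 12 markers lower and 8 higher, and the 8 blood cell markers tested were all higher on average (9.99 to 47.3 and 12.8 to 56.7 CPM). Purkinje cell markers summed to 11440 to 13610 and 11100 to 13040 CPM and overlapped, with 10 of 11 markers lower. At an unadjusted p under 0.05 in edgeR, 6 microglial, 5 mural, 4 oligodendrocyte, 4 astrocyte, 3 endothelial, 3 choroid plexus, 3 Purkinje cell and no granule or blood cell markers were lower. Of 13 marker lists 1 had summed levels without overlap, that of molecular layer interneurons (1748 to 1893 CPM in *Atm*-WT mice against 1593 to 1667 CPM in *Atm*-KO mice), with 7 of 8 markers lower. The part of cell makeup in the levels of the 10 genes was not tested.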

How the data were processed

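RNA from the cerebellum of 8 mice was sequenced by Novogene. The authors used FastQC 0.11.9 for read quality, STAR for alignment to GRCm39 and featureCounts for counting, and the deposited values are raw counts per gene, not normalized. The study names GENCODE Release 28. The strand and pair settings are not given in the sources used here. Identifiers were matched without version to GENCODE vM39 on GRCm39 (56017 of 56691).

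Genotypes came from the labels. Counts were fitted in R 4.3.3 with edgeR 4.0.16 (filterByExpr, TMM, glmQLFit and glmQLFTest at default settings, Benjamini-Hochberg adjustment). Calls needed an adjusted p below 0.05 with a log2 fold change of more than 0.5 in size. CPM used TMM factors, log2 CPM a prior count of 2, and RPKM the exon lengths of vM39. Alternatives were DESeq2 1.42.0, limma voom (limma 3.58.1), RLE factors, library size alone, no filter, at least 10 counts in every library, and each library left out. The fit was tested on simulated data.

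The members and lists were chosen with earlier results of these data known. Named genes were the 10, *Atm*, in each list the 2 with the greatest absolute log2 fold change among those averaging 1 CPM or more with an unadjusted p under 0.05, and the 10 most like the set within genotypes. Single pairs, *Arnt2*, *Mapk3*, *Map2k6*, *Elk4*, the factors named for their r, and the genes shared by lists were named after their values were seen. Only the promoter windows before the start were used. Each mouse is 1 library. The p-values weigh the difference between genotypes against the spread between mice, which edgeR estimates partly from all genes together.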

Additional observations from a re-analysis of the deposited data

Results flagged for a closer look

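Among 62 groups of 4 libraries examined (the 10 genes, *Atm* and list and marker sums in each genotype), 1 held a sample far from the others, where chance alone would give about 1 in 20 groups. The summed level of meningeal fibroblast markers was 182 CPM in *Atm*-WT mouse 7M against 154 to 158 CPM in the other *Atm*-WT mice. None of the 10 genes had such a sample in either genotype.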

How the results depend on the processing

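The log2 fold changes of the 10 genes moved by less than the spread between mice under all 14 alternatives. Their median stayed between -0.36 and -0.23, and 8 or 9 genes were below 0. The number of genes called over the whole table did depend on the processing: 4 with edgeR became 994 with DESeq2 (807 higher, 187 lower), 435 without a filter (332 higher, 103 lower) and 2 with at least 10 counts in every library (2 higher), and ranged from 1 to 27 with a library left out (27 without *Atm*-WT 13M). With library size alone the split was 3 higher and 1 lower in place of 2 and 2, 44.5% of genes in place of 53.1% had a log2 fold change below 0, and 8 of the 10 genes did. The cause was not tested. The median r between the genes within genotypes stayed between -0.052 and 0.19 and their median SD between 0.19 and 0.24. Leaving out each library for the list genes named and for the count of genes without overlap was chosen after seeing the data, and that count was 3 or 4, while the share of all genes tested went from 5.12% to between 6.19% and 9.48%. Among the lists, the median of the MAPK cascade (-0.032) took values from -0.057 to 0.018 under the alternatives that moved it, and lists with few genes at an unadjusted p under 0.05 gained or lost 1 to 3 of them. Depth limits *Npas4* most, at 66 to 177 counts per library. From 67.3% to 73.3% of the counts from 1 to 50 were even in each library, so a count may be a read of a pair rather than a fragment, and fewer independent molecules may stand behind it. No paired analysis was possible because the labels pair no mice and the genotypes share only the number 7.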
